A study of Mus musculus with 4 samples.

Results

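The mast cell genes described here are 10 genes by which mast cells are commonly recognised, taken as a fixed list of symbols from a table of 25571 genes. They fall into 4 roles: the granule proteases Cpa3, Mcpt4, Cma1, Tpsb2 and Tpsab1, the surface receptors Kit, Fcer1a and Ms4a2, the histamine-forming enzyme Hdc, and the transcription factor Gata2. All 10 were found in the table under their symbols and matched GENCODE M21 by their identifiers. The question attached to the list was whether Hdc follows the proteases or the libraries rich in neutrophil transcripts.

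Mast cells are resident cells of the dermis that store histamine, heparin and a set of proteases in granules and release them when IgE bound to their high-affinity receptor is cross-linked. They depend on Kit, the receptor for stem cell factor, and on the transcription factor Gata2. Connective tissue mast cells, the kind found in mouse skin, carry Cpa3, Mcpt4, Cma1 and tryptases in their granules. Histamine itself is made by Hdc, which in mice is also known from basophils, neutrophils and other myeloid cells, so that Hdc alone does not mark a mast cell.

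RNA came from mouse skin in 4 groups with 1 library each. The PRP-MNs group had platelet-rich plasma together with microneedles, the PRP group platelet-rich plasma and the MNs group microneedles, as far as these abbreviations are commonly read. NC, which the labels do not spell out, served as the reference. Strain, age, sex, harvest time, hair cycle stage, the number of animals behind a library and any treatment shared by all groups are not given in the sources used here. With 1 library per group, differences between groups carry no replicate check, no p-value and no error between animals.

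Values were FPKM, fragments scaled to transcript length and library size. Steps between low values put depth, in fragments, at about 17.3 M for the PRP-MNs library, 15.9 M for PRP, 18.6 M for MNs and 19.4 M for NC. Taking 3 fragments as the floor, a 1 kb transcript would stand at 0.174, 0.188, 0.161 and 0.155 FPKM in the same libraries. Intervals given below are 95% exact Poisson intervals on the estimated fragment number of 1 library, and like the floors they cover counting error only. Overlap of such intervals is a description, not a test, and does not show that 2 libraries are equal. A difference is log2 of the ratio of FPKM + 1, which understates the change of low genes. It was counted where it reached 2-fold and the gene stood at 1 FPKM or more in at least 1 of the 2 libraries.

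The promoters of the proteases and of Hdc are shown because the members do not share 1 pattern across the libraries, and GATA2, the factor on the list, binds the core GATA. Each sequence is the 250 bases before the RefSeq transcription start in the table for GRCm38.p6, written 5′ to 3′ on the strand of the gene, with each GATAA, or TTATC for the same letters on the other strand, in capitals. The Cpa3 window is chr3:20242182-20242431 on the minus strand, the Mcpt4 window chr14:56062311-56062560 on the minus strand, the Cma1 window chr14:55944676-55944925 on the minus strand and the Hdc window chr2:126618679-126618928 on the minus strand.
Cpa3 promoter: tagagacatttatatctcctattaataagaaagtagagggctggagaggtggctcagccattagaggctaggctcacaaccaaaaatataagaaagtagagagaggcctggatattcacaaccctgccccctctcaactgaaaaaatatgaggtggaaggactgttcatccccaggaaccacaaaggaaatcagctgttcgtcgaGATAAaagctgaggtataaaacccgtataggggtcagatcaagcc
Mcpt4 promoter: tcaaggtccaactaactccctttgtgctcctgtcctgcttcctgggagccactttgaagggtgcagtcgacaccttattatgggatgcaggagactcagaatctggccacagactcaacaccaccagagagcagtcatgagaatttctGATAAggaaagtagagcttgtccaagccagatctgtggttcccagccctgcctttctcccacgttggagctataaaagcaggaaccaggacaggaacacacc
Cma1 promoter: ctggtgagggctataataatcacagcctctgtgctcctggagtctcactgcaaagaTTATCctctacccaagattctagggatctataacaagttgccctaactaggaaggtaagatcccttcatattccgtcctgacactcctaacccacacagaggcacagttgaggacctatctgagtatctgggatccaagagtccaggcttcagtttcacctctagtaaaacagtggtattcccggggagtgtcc
Hdc promoter: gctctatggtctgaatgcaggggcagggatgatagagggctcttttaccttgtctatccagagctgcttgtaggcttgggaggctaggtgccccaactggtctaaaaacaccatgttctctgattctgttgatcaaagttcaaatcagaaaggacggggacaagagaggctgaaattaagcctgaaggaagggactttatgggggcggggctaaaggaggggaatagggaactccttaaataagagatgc
The motif lay 45 bases upstream of the start in Cpa3, 102 in Mcpt4 and 194 in Cma1, and these letters were not in the Hdc window. That window lies inside the gene as GENCODE M21 places it, which runs to chr2:126619299. The Cpa3 and Cma1 windows lie outside their genes. The Hdc window did hold the shorter core GATA, followed by G and not by A, on either strand (TGATAG on the strand of the gene). That core followed by a base other than A was not marked or counted in any window. The count therefore covers GATAA and TTATC only and does not separate Hdc from the proteases for other GATA sites. Of the 8 members with a promoter entry, 5 held GATAA or TTATC. They were the 3 proteases shown, Fcer1a (92 bases upstream) and Ms4a2 (224, 37 and 10 bases upstream). The Kit, Gata2 and Hdc windows did not. Among all 32851 promoters of the table, 22.6% held GATAA on either strand in the same 250 bases. A match describes the letters, not binding. Tpsb2 and Tpsab1 had no entry.

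Of the proteases, 4 were present at 5 FPKM or more in every library and were highest in MNs skin. Cpa3, carboxypeptidase A3, an exopeptidase of the granule (ENSMUSG00000001865, chr3:20215620-20242181, minus strand, GRCm38), stood at 7.22 FPKM in PRP-MNs, 17.7 in PRP, 34.0 in MNs, against 7.01 in NC. Mcpt4, a chymase of connective tissue mast cells (ENSMUSG00000061068, chr14:56059629-56062313, minus strand), stood at 10.8, 24.6, 56.6 and 12.8 FPKM in the same order. In both genes the MNs library was highest and the PRP library next, and PRP-MNs lay close to NC. For Cpa3 the counting interval was 6.22 to 8.37 FPKM in PRP-MNs and 6.08 to 8.08 in NC, so the small difference between them was within counting error. For Mcpt4 the intervals of 9.40 to 12.4 FPKM in PRP-MNs and 11.3 to 14.4 in NC also overlapped.

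Cma1, an alpha-chymase also known as Mcpt5 (ENSMUSG00000022225, chr14:55941451-55944675, minus strand), had 12.6 FPKM in PRP-MNs, 15.2 in PRP, 37.0 in MNs, against 8.94 in NC. Tpsb2, a tryptase also known as Mcpt6 (ENSMUSG00000033825, chr17:25366305-25369098, plus strand), had 8.69, 10.3, 19.1 and 5.49 FPKM. Both had their highest level in MNs and their lowest in NC, with PRP-MNs and PRP between. Counting intervals of PRP-MNs and PRP overlapped in Cma1, at 11.1 to 14.4 and 13.4 to 17.1 FPKM, and likewise in Tpsb2, at 7.53 to 10.03 and 8.93 to 11.7 FPKM.

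Tpsab1, the other tryptase, also known as Mcpt7 (ENSMUSG00000024173, chr17:25343245-25345562, minus strand), was much lower than the other proteases and ordered differently. It stood at 1.34 FPKM in PRP-MNs, 0.361 in PRP, 0.310 in MNs, against 0.110 in NC, or about 44.5, 11.1, 11.1 and 4.1 fragments. The PRP-MNs library was highest and lay above the counting intervals of the others. PRP and MNs did not differ beyond their intervals of 0.179 to 0.640 and 0.153 to 0.547 FPKM. The Tpsb2 to Tpsab1 ratio was 6.50 in PRP-MNs, 28.4 in PRP, 61.7 in MNs, against 49.8 in NC.

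These proteases have close relatives in the genome, so reads could in principle be shared. Identity was taken over the aligned bases of the longest reading frames, leaving out gaps. Tpsb2 and Tpsab1 were 77.1% identical, yet none of the 1636 stretches of 50 bases in Tpsb2 transcripts occurred in Tpsab1. Mcpt4 shared none with Cma1, at 71.3% identity, or with Mcpt1, the closest of those compared, at 87.0%. Mcpt4 shared 7 of 1059 such stretches with Mcpt9, which was listed at 0 in every library. In GENCODE M21 the members overlap no other gene except Cpa3, which overlaps the microRNA gene Mir7007.

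**Figure D1:**
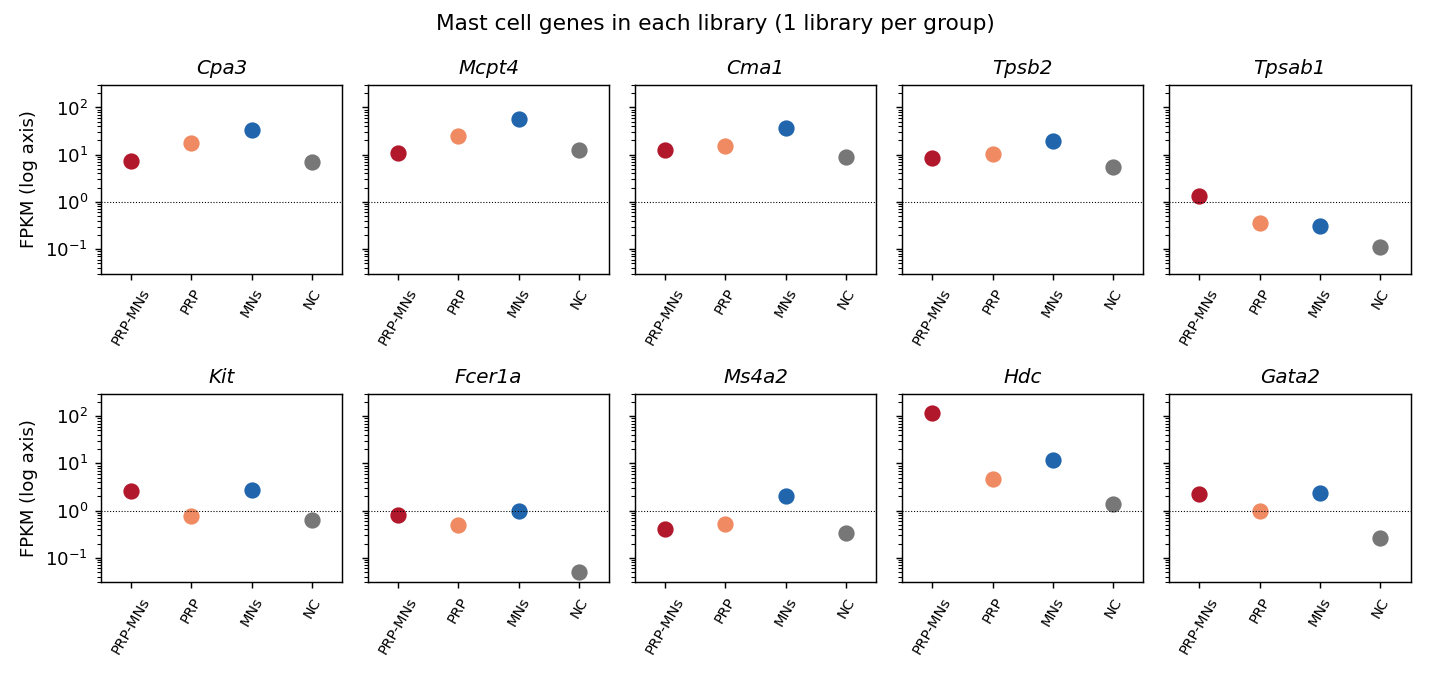
FPKM of the 10 mast cell genes in the PRP-MNs, PRP, MNs and NC libraries, 1 point per library, on a log axis, with the dotted line at 1 FPKM. Cpa3, Mcpt4, Cma1 and Tpsb2 are highest in MNs, whereas Hdc stands at 119 FPKM in PRP-MNs against 12.0 in MNs.

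Summed over the 5 proteases, the level was 40.7 FPKM in PRP-MNs, 68.1 in PRP, 147 in MNs, against 34.3 in NC. In bulk skin, fewer cells of a type and less RNA per cell cannot be told apart. The proteases did not keep 1 ratio to each other, since Mcpt4 was 0.856 times Cma1 in PRP-MNs but 1.62 times in PRP, 1.53 times in MNs, against 1.43 times in NC. Likewise Cpa3 was 0.831 times Tpsb2 in PRP-MNs, against 1.73 in PRP, 1.78 in MNs, against 1.28 in NC. In both ratios the PRP-MNs library was lowest. Set against Ptprc, the CD45 gene shared by all leukocytes, Cpa3 was 0.0879 times its level in PRP-MNs, 0.803 in PRP, 1.28 in MNs, against 1.43 in NC.

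Of the 3 receptors, only Kit and Ms4a2 reached 1 FPKM in any library. Kit (ENSMUSG00000005672, chr5:75574916-75656722, plus strand) had 2.57 FPKM in PRP-MNs, 0.757 in PRP, 2.77 in MNs, against 0.644 in NC. PRP-MNs and MNs were alike within counting error, at 2.25 to 2.93 and 2.45 to 3.12 FPKM, and both lay above PRP and NC, which overlapped each other. Kit also marks melanocytes, and 4 of the 5 melanocyte genes that reached 1 FPKM in any library were highest in MNs. The exception was Sox10, at 2.62 FPKM in PRP-MNs, 1.05 in PRP, 2.51 in MNs, against 0.207 in NC. Like Kit, it was higher in PRP-MNs and MNs than in PRP and NC. The whole list of 6 summed to 3.08 FPKM in PRP-MNs, 2.72 in PRP, 18.3 in MNs, against 3.28 in NC. Dct, a pigment enzyme, stood at 0.349, 0.749, 8.98 and 1.04 FPKM in that order, while Tyr and Mlana were at 0 in PRP-MNs and Tyr also in PRP. The part of melanocyte transcripts in the Kit values was not tested.

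Ms4a2 and Fcer1a encode the beta chain and the IgE-binding alpha chain of the high-affinity IgE receptor. Ms4a2 (ENSMUSG00000024680, chr19:11615523-11623719, minus strand) had 0.402 FPKM in PRP-MNs, 0.530 in PRP, 2.01 in MNs, against 0.329 in NC. The MNs value stood apart, with an interval of 1.62 to 2.48 FPKM, and the other libraries overlapped. Fcer1a (ENSMUSG00000005339, chr1:173221284-173227214, minus strand) had 0.788, 0.50, 0.987 and 0.050 FPKM, the NC value being about 1 fragment. It never reached the 1 FPKM filter, so it entered no count, and the PRP-MNs, PRP and MNs values did not differ beyond their intervals.

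Gata2 (ENSMUSG00000015053, chr6:88193891-88207032, plus strand) had 2.25 FPKM in PRP-MNs, 0.973 in PRP, 2.38 in MNs, against 0.264 in NC. PRP-MNs and MNs overlapped within counting error, PRP lay below both and NC below PRP. Gata2 is also expressed by blood vessel endothelium, whose 6 listed genes were all lowest in NC. They summed to 153 FPKM in PRP-MNs, 52.7 in PRP, 111 in MNs, against 19.5 in NC, with none at 0. Pecam1, the CD31 gene, stood at 79.1, 21.9, 46.5 and 6.83 FPKM. The part of endothelial transcripts in the Gata2 values was not tested.

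Hdc, histidine decarboxylase (ENSMUSG00000027360, chr2:126593667-126619299, minus strand), was by far the most variable member. It stood at 119 FPKM in PRP-MNs, 4.56 in PRP, 12.0 in MNs, against 1.39 in NC, or about 4903, 174, 536 and 64 fragments. None of the counting intervals overlapped, and that of PRP-MNs, at 115 to 122 FPKM, lay far above that of MNs, the next highest, at 11.02 to 13.08. The PRP-MNs level was 85.6 times NC, 26.0 times PRP and 9.88 times MNs. MNs was 8.67 times NC and PRP 3.29 times NC. Relative to Cpa3, Hdc was 16.4-fold in PRP-MNs, 0.257-fold in PRP, 0.353-fold in MNs, against 0.198-fold in NC.

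Checked against the label, mast cell transcripts were present in each library, with 4 granule proteases at 5 FPKM or more in all 4 samples. The library richest in the proteases and the library richest in Hdc were not the same. Mast cell protease transcripts were most abundant in MNs and Hdc transcripts in PRP-MNs.

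For PRP-MNs against NC, 8 members were measured, of which 4 were at least 2-fold higher and none was at least 2-fold lower. Over all 13981 genes tested, 29.1% passed 2-fold in either direction, 17.6% higher and 11.5% lower. The members' median difference was 0.83 on the log2 scale, beside 0.14 for all genes tested. The 4 were Hdc (5.65), Gata2 (1.36), Kit (1.12) and Tpsab1 (1.07), of which the last 3 entered the count only through PRP-MNs, the library where they were high. After centring on the median of all genes, Kit (0.98) and Tpsab1 (0.93) no longer reached 2-fold. Among the abundant proteases the differences were 0.58 for Tpsb2, 0.46 for Cma1, 0.04 for Cpa3 (-0.11 after centring) and -0.22 for Mcpt4.

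For PRP against NC, 5 members were measured and 2 were at least 2-fold higher, with none lower, against a background of 9.24% either way (7.78% higher and 1.46% lower of 13533 genes). These were Cpa3 (1.23) and Hdc (1.22). Mcpt4 (0.89), Tpsb2 (0.80) and Cma1 (0.70) lay under 2-fold, and the median of the measured members was 0.89, beside 0.04 for all genes.

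For MNs against NC, all 8 measured members were at least 2-fold higher, where 22.8% of 13925 genes passed in either direction, 15.7% higher and 7.12% lower. Hdc (2.45), Cpa3 (2.13), Mcpt4 (2.06), Cma1 (1.94) and Tpsb2 (1.63) led. Gata2 (1.42), Kit (1.20) and Ms4a2 (1.18) entered the count only through MNs, where they were high. In FPKM, the abundant proteases in MNs were 4.85 times (Cpa3), 4.43 times (Mcpt4), 4.14 times (Cma1) and 3.49 times (Tpsb2) their NC level. Of the calls over all genes, 57.8% were higher after centring, beside 68.8% as deposited. The members' median was 1.79, beside 0.16 for all genes. Tpsab1 and Fcer1a did not reach the filter here.

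The 3 comparisons above share the NC library, so a low or high value in NC enters each of them. Each difference is one between 2 libraries.

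**Figure D2:**
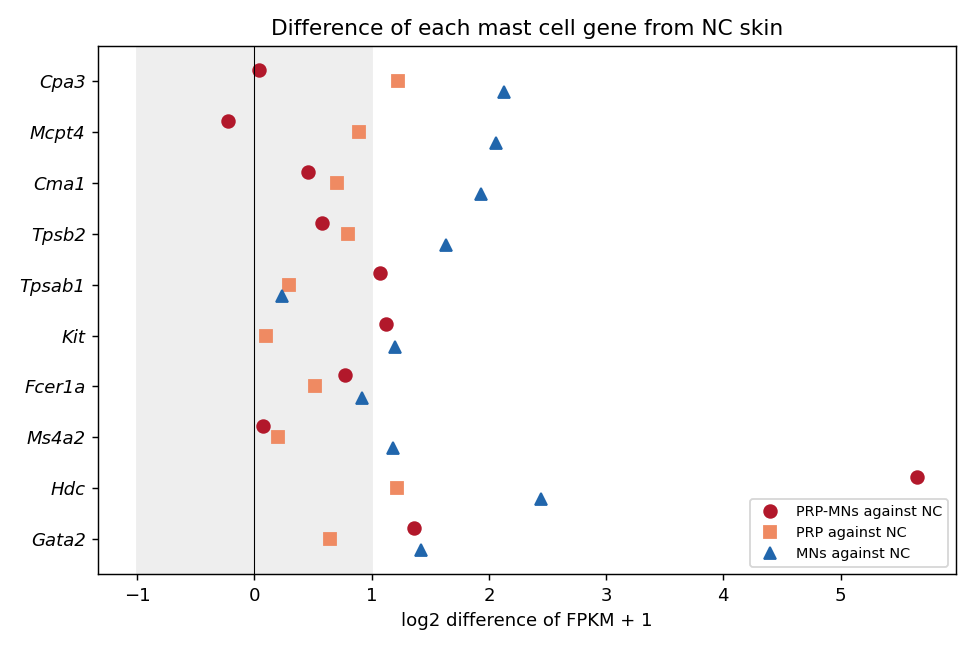
Log2 difference of FPKM + 1 of each mast cell gene from the NC library, for PRP-MNs, PRP and MNs (1 library each). The grey band marks less than 2-fold. The abundant proteases lie farthest right in MNs, at 1.63 to 2.13, and Hdc in PRP-MNs, at 5.65.

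Setting PRP-MNs against each treatment alone split the members in both directions. Against PRP, 8 members were measured, 2 were higher and 2 lower by 2-fold or more, where 17% of 13861 genes passed in either direction, 9.54% higher and 7.5% lower. Hdc (4.43) and Kit (1.02) were higher, and Cpa3 (-1.19) and Mcpt4 (-1.12) lower. Kit entered only through PRP-MNs, and its difference was 0.95 after centring. Of the other proteases, Cma1 (-0.25) and Tpsb2 (-0.22) were slightly lower, while Tpsab1 was higher by 0.78, with counting intervals that did not overlap, and reached 1 FPKM only in PRP-MNs. With a pseudocount of 0.1 FPKM its difference was 1.64. Gata2 also reached 1 FPKM only in PRP-MNs and was higher by 0.72, or by 1.13 with that pseudocount.

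For PRP-MNs against MNs, 9 members were measured, of which 1 was higher and 5 lower by 2-fold or more, against a background of 14.5% either way (7.16% higher and 7.39% lower of 13933 genes). Hdc was the higher one, at 3.20. The lower ones were Mcpt4 (-2.29), Cpa3 (-2.09), Cma1 (-1.48), Ms4a2 (-1.10) and Tpsb2 (-1.06), of which Ms4a2 entered only through MNs. Kit (-0.08) and Gata2 (-0.06) stood at nearly the same level in both. Tpsab1 differed from the other proteases, being higher in PRP-MNs by 0.83, with counting intervals that did not overlap. It reached 1 FPKM only in PRP-MNs, and its difference was 1.81 with a pseudocount of 0.1 FPKM. The members' median was -1.06, beside -0.02 for all genes.

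For PRP against MNs, 8 members were measured and 4 were at least 2-fold lower, none higher, where 10.6% of 13838 genes passed in either direction, 4.62% higher and 5.99% lower. These were Cma1 (-1.23), Hdc (-1.23), Mcpt4 (-1.17) and Kit (-1.10), of which Kit entered only through MNs, as did Ms4a2 and Gata2. Ms4a2 (-0.98), Cpa3 (-0.90), Tpsb2 (-0.84) and Gata2 (-0.78) lay under 2-fold. When all libraries were given the same FPKM sum, Cpa3 (-1.05) and Ms4a2 (-1.06) passed it, and 32.0% of the calls over all genes were higher, beside 43.6% as deposited.

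By order of level, Cpa3, Cma1, Tpsb2 and Ms4a2 ran MNs, PRP, PRP-MNs, NC from high to low, an order held by 4.08% of the 10582 genes at or above 5 FPKM in any library. Mcpt4 had NC above PRP-MNs, an order held by 3.67%. Kit, Fcer1a and Gata2 ran MNs, PRP-MNs, PRP, NC (10.9% of genes). Hdc ran PRP-MNs, MNs, PRP, NC, the commonest order of all, held by 16.9%, and Tpsab1 ran PRP-MNs, PRP, MNs, NC (6.83%). Several of these neighbours had counting intervals that overlapped, as given above.

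To set Hdc against the proteases and against neutrophil genes, each gene's log2(FPKM + 1) was centred on its own mean over the 4 libraries, and the Euclidean distance between such profiles was taken. Of 13 listed neutrophil genes, 8 reached 1 FPKM in some library and formed the neutrophil mean. Ly6g did so only in PRP-MNs, the library where it was high. The 5 left out were below 1 FPKM throughout and not all highest in PRP-MNs. The mean was not recomputed without Ly6g, S100a8 or S100a9, or with the genes left out. With only 4 libraries no correlation was computed, and these distances are a description. Centred Hdc took the values 3.32 in PRP-MNs, -1.11 in PRP, 0.12 in MNs, against -2.33 in NC. The protease mean stood at -0.31, 0.09, 0.91 and -0.69, peaking in MNs. The neutrophil mean stood at 1.76, -0.22, -0.33 and -1.21, peaking in PRP-MNs as Hdc did.

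Hdc lay 2.16 log2 units from the neutrophil mean and 4.23 from the protease mean. The means themselves lay 2.49 apart. Of the other members, 8 were nearer the protease mean, from 0.20 for Tpsb2 to 1.07 for Kit, where a protease was compared with the mean of the remaining proteases. Tpsab1, with at most 44.5 fragments in a library, was nearer the neutrophil mean (1.37) than the protease mean (1.87). Hdc was nearer the neutrophil mean with a pseudocount of 0.1 FPKM and with both rescalings too, and dividing each profile by its SD over the libraries gave 0.52 to the neutrophil mean and 1.88 to the protease mean.

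**Figure D3:**
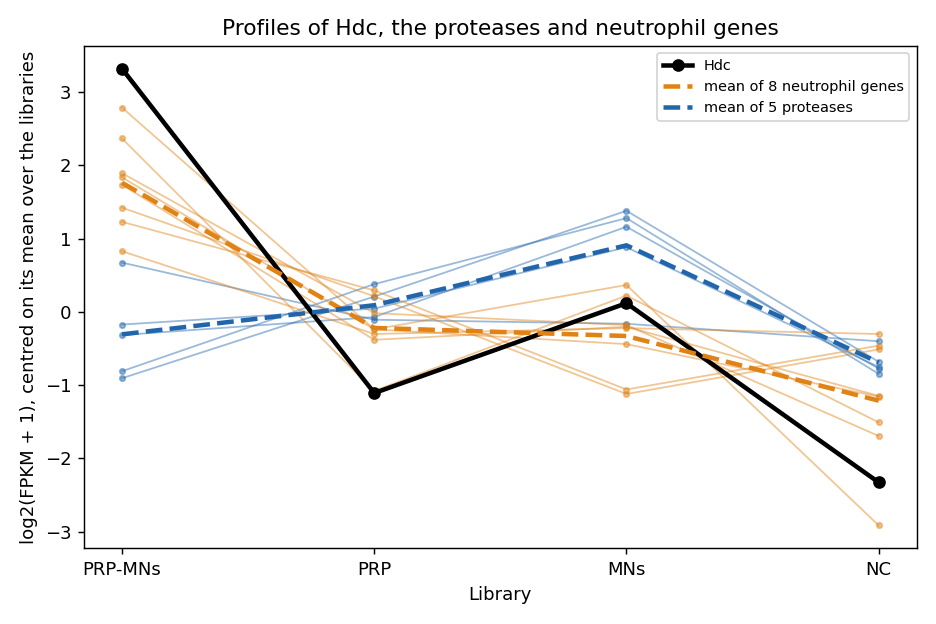
Centred log2(FPKM + 1) in the 4 libraries for Hdc (black), 5 proteases (thin blue) and 8 neutrophil genes (thin orange), with the mean of each list dashed. Lines join libraries of separate groups only to guide the eye. Hdc peaks at 3.32 in PRP-MNs, where the protease mean is -0.31.

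**Figure D4:**
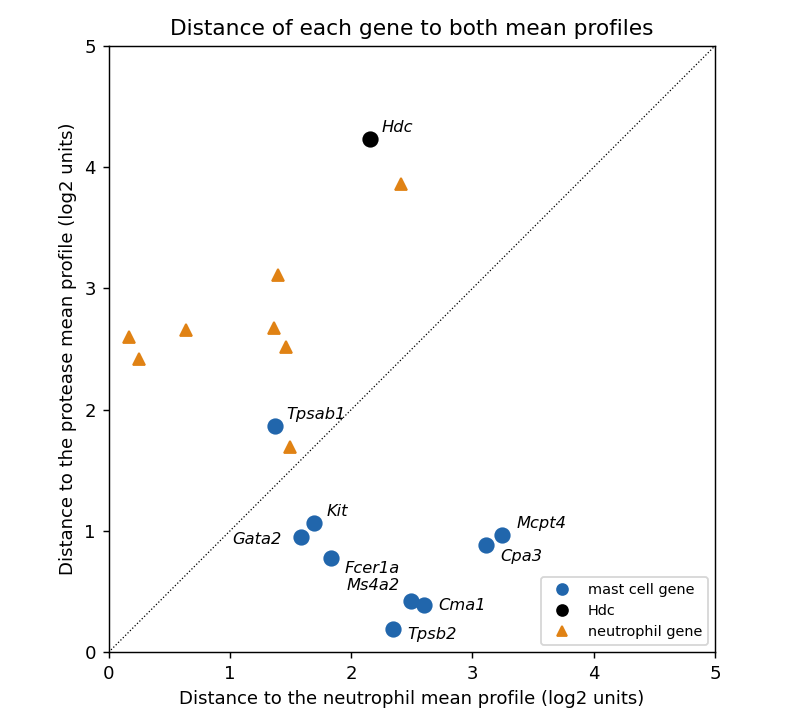
Distance of each mast cell gene and each neutrophil gene to the neutrophil mean profile (horizontal) and to the protease mean profile (vertical), in log2 units over the 4 libraries. Points above the dotted line are nearer the neutrophil mean. Hdc lies at 2.16 and 4.23, and each neutrophil gene or protease was left out of the mean of its own list.

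Other leukocyte lists lay as near to Hdc as the neutrophil genes did. Hdc lay 2.06 from the mean of 6 general leukocyte genes and 2.07 from the mean of 12 monocyte and macrophage genes, beside 2.16 from the neutrophil mean. The mean of IgE receptor signalling genes lay 2.75 away, that of endothelial genes 2.86, that of the other mast cell genes 3.5 and that of the melanocyte genes 4.46. Of the 8 neutrophil genes, 3 ran in the same order of libraries as Hdc, against 4 of 6 leukocyte genes and 3 of 12 monocyte and macrophage genes. The same order was held by 9 of 12 IgE receptor signalling genes, 6 of 7 Kit signalling genes and 3 of 6 endothelial genes, beside 16.9% of all genes at or above 5 FPKM.

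Neutrophil transcripts were most abundant in PRP-MNs. All 8 measured neutrophil genes exceeded NC by 2-fold or more in PRP-MNs (median difference 2.94), and all 8 exceeded MNs there (2.21), where 17.6% and 7.16% of all genes did. Ly6g entered both counts only through PRP-MNs, and Csf3r and Mmp8 did so against NC. The whole list summed to 1052 FPKM in PRP-MNs, 413 in PRP, 191 in MNs, against 238 in NC, of which most was S100a8 and S100a9, which epidermis can also express. Without these the sums were 222, 36.9, 43.1 and 12.7 FPKM. Csf3r, the receptor for granulocyte colony-stimulating factor, stood at 89.5, 10.1, 15.9 and 0.736 FPKM, and the chemokine receptor Cxcr2 at 59.4, 13.3, 11.5 and 6.58. Genes of neutrophil precursors (Mpo, Elane, Camp, Ngp and Ltf) stayed below 1 FPKM, with Mpo at 0 in PRP-MNs, PRP and NC and Elane at 0 in PRP, MNs and NC.

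Hdc did not keep a fixed ratio to Csf3r, being 1.33 times its level in PRP-MNs, 0.451 in PRP, 0.756 in MNs, against 1.89 in NC. Against Ptprc it was 1.44 times in PRP-MNs, 0.206 in PRP, 0.453 in MNs, against 0.282 in NC. Monocyte and macrophage genes summed to 2092 FPKM in PRP-MNs, 671 in PRP, 768 in MNs, against 151 in NC, and leukocyte genes to 1134, 367, 365 and 86.7, with no gene of either list at 0. Both sums were highest in PRP-MNs, as Hdc was. All 6 leukocyte genes were highest there, as were 8 of the 12 monocyte and macrophage genes. The other 4, Mrc1, Csf1r, C1qa and C1qb, were highest in MNs. Which cells held the Hdc transcripts was not tested, and the part of neutrophils, monocytes and macrophages in the result was not tested.

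Basophils also make histamine. Of 5 basophil genes, 4 stayed below 1 FPKM in every library. Mcpt8, the basophil protease, was at 0.241 FPKM in PRP-MNs, 0.169 in PRP, 0.251 in MNs, against 0 in NC, and Prss34 was at 0 in all but MNs (0.134). The exception was Il3ra, the interleukin-3 receptor alpha chain, which other myeloid cells and endothelium also express, at 8.63 FPKM in PRP-MNs, 4.26 in PRP, 5.78 in MNs, against 0.870 in NC. The list summed to 9.88 FPKM in PRP-MNs, 5.13 in PRP, 7.38 in MNs, against 1.04 in NC.

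The 10 genes with the profile nearest to Hdc, among 10102 named genes at or above 5 FPKM in any library, were Il1b, Clec4d, Clec4e, Trem1, Ppbp, Plaur, Il1rl1, Stfa2l1, Nlrp3 and Srgn, at distances of 0.19 to 0.87 over the 4 libraries. Il1b, the interleukin-1 beta gene, stood at 539 FPKM in PRP-MNs, 20.8 in PRP, 52.5 in MNs, against 9.94 in NC. Clec4d and Clec4e are C-type lectin receptors and Trem1 an activating receptor of myeloid cells, Ppbp a platelet chemokine, Plaur the urokinase receptor and Nlrp3 an inflammasome sensor. Stfa2l1, a stefin, was listed at 0 in NC and stood at 28.9 FPKM in PRP-MNs. Csf3r was at rank 29 and Mmp8, a neutrophil collagenase, at rank 34.

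A pair of these nearest genes came from the list of other mast cell genes. Il1rl1, the interleukin-33 receptor, stood at 112 FPKM in PRP-MNs, 1.77 in PRP, 10.3 in MNs, against 0.794 in NC. Srgn, the granule proteoglycan serglycin, which many leukocytes make, stood at 758, 71.8, 80.1 and 17.2 FPKM. Both were highest in PRP-MNs, as Hdc was, and the Hdc to Il1rl1 ratio lay between 1.06 and 2.58 over the libraries. The gene nearest to the protease mean was Cd34, at distance 0.097, a surface protein of progenitors, endothelium, fibroblasts and mast cells, with 57.3 FPKM in PRP-MNs, 74.5 in PRP, 124 in MNs, against 43.7 in NC. Next came Cpq, Gpc3, Serpina3c, Dnm1, Fzd7, Agpat2, Cbr2, Gpd1 and Rtl8c, at distances of up to 0.17.

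**Figure D5:**
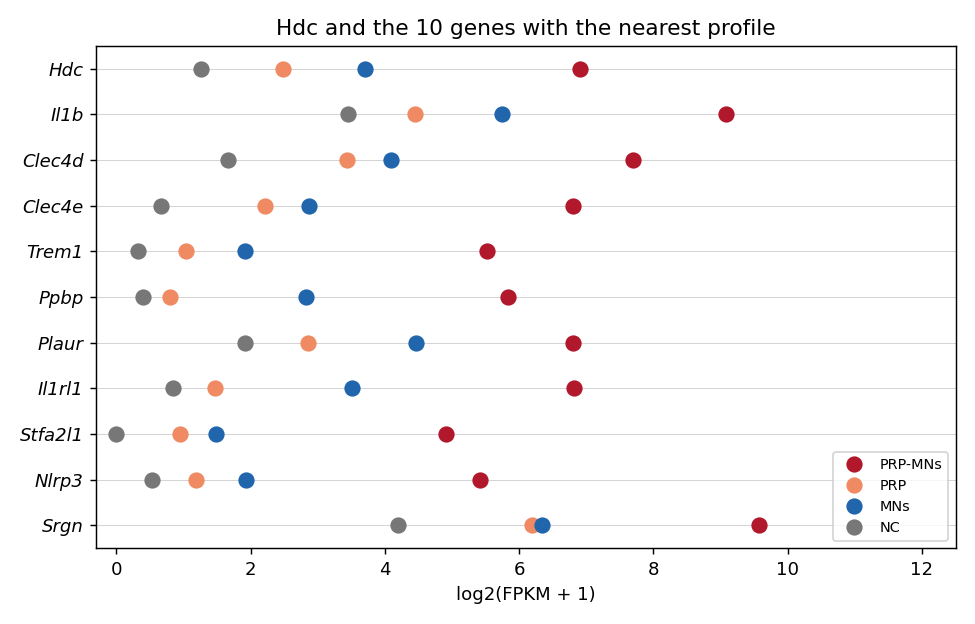
Log2(FPKM + 1) in each library for Hdc and the 10 genes nearest to it in profile, from near (top) to far, 1 point per library. In each of these genes the PRP-MNs point is highest and the NC point lowest, and Il1b stands at 539 FPKM in PRP-MNs against 9.94 in NC.

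Other genes of mast cells showed no single pattern. Of 20 further mast cell genes, 10 were measured in PRP-MNs against NC, with 5 higher and 3 lower by 2-fold or more (median 0.77). As with the members, a gene low in one library could enter such counts through the other alone. In MNs against NC, 12 were measured, with 4 higher and 3 lower (median 0.77). Over all genes tested, 17.6% were higher and 11.5% lower in PRP-MNs against NC. In MNs against NC these shares were 15.7% and 7.12%. Mrgprb2, the receptor of connective tissue mast cells for basic secretagogues, ran against the proteases, at 0.535 FPKM in PRP-MNs, 5.81 in PRP, 1.52 in MNs, against 12.9 in NC. Its neighbour in the family, Mrgprb1, named here after its values were seen, stood at 0.809, 0.973, 2.48 and 0.459 FPKM, highest in MNs as the proteases were. Csf2rb, the common beta chain of the receptors for interleukin-3 and GM-CSF, stood at 48.8 FPKM in PRP-MNs, 8.59 in PRP, 18.0 in MNs, against 5.43 in NC. The proteases of mucosal mast cells, Mcpt1 and Mcpt2, were at 0.129 FPKM or less in every library.

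Of 12 genes that carry the IgE receptor signal, 10 were higher by 2-fold or more in PRP-MNs than in NC (median 2.61), 10 in MNs than in NC (1.58), 7 in PRP than in NC (1.20) and 5 in PRP-MNs than in MNs (0.87), with none lower. Over all genes tested, 17.6%, 15.7%, 7.78% and 7.16% were higher in the same comparisons. Most of the 12 are shared with other leukocytes. Lyn, the first kinase of the pathway, stood at 67.8 FPKM in PRP-MNs, 14.8 in PRP, 19.1 in MNs, against 2.20 in NC, and Fcer1g, the shared gamma chain, at 360, 124, 102 and 24.6. Fcer1g is also one of the leukocyte genes and was highest in PRP-MNs, whereas Ms4a2, the beta chain gene, was highest in MNs. For Fcer1a, the alpha chain gene, PRP-MNs and MNs did not differ beyond their counting intervals.

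Of 8 genes for Kit signalling and mast cell growth factors, 7 were measured in PRP-MNs against NC and 6 were at least 2-fold higher (median 1.21), and 3 of 7 in MNs against NC (0.98). Over all genes tested, 17.6% and 15.7% were higher in these comparisons, with medians of 0.14 and 0.16. Several calls lay close to 2-fold, namely Mitf in both (1.01 and 1.00), Tal1 in PRP-MNs (1.12) and Stat5b in MNs (1.11). Tal1, at 1.62 FPKM in PRP-MNs and 0.206 in NC, entered the first count only through PRP-MNs, where it was high. Kitl, stem cell factor, stood at 21.1 FPKM in PRP-MNs, 7.23 in PRP, 8.91 in MNs, against 5.31 in NC. Il33, the ligand of Il1rl1, stood at 119, 75.2, 76.5 and 38.2 FPKM. Both ligands were highest in PRP-MNs, and Il3, the interleukin-3 gene, was at 0 in every library.

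Among 7 genes of histamine handling, 2 were measured in PRP-MNs against NC. Hrh2, the H2 receptor, stood at 5.85 FPKM in PRP-MNs, 0.767 in PRP, 1.5 in MNs, against 0.123 in NC, in the same order of libraries as Hdc. Hnmt, which inactivates histamine, varied little, at 2.81, 4.32, 3.90 and 4.48 FPKM. Slc18a2, the transporter that loads histamine into mast cell granules, stood between 0.648 and 0.951 FPKM, so that the range of Hdc had no counterpart in it.

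Mast cells also make prostaglandins and leukotrienes. Of 7 genes of that route, 2 were higher and 3 lower by 2-fold or more in PRP-MNs than in NC (median -0.65). Over all genes tested, 17.6% were higher and 11.5% lower. Alox5ap, which presents arachidonic acid to 5-lipoxygenase, stood at 141 FPKM in PRP-MNs, 63.2 in PRP, 71.0 in MNs, against 15.9 in NC. Ptgs1 and Ptgs2, the constitutive and inducible cyclooxygenases, differed in opposite directions. Ptgs1 was at 17.0, 69.5, 23.6 and 98.6 FPKM, lowest in PRP-MNs, and Ptgs2 at 41.8, 5.46, 11.3 and 8.86, highest there. Of 6 genes of heparin and the granule matrix, 2 exceeded NC by 2-fold or more in PRP-MNs, beside the same 17.6% of all genes. These were Srgn and Ndst2, a heparin sulfotransferase with 17.5 FPKM in PRP-MNs, 8.92 in PRP, 10.8 in MNs, against 6.08 in NC. Of 5 eosinophil genes, the granule genes Epx and Prg2 were at 0 in every library. Siglecf stood at 1.30 FPKM in PRP-MNs, 0.691 in PRP, 0.204 in MNs, against 0.069 in NC. Ccr3 stood at 1.10, 1.52, 0.890 and 0.060 FPKM. Siglecf reached 1 FPKM only in PRP-MNs, and Ccr3 only in PRP-MNs and PRP. Il5ra was at 0.158 FPKM or less.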

How the data were processed

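Skin RNA from 4 groups of mice, 1 library each, was sequenced. Per the labels' protocols, 1 μg of RNA went into each library (NEBNext Ultra kit). The deposited values are FPKM, 1 per gene and library, as computed by the authors. Per the submitters' processing notes the reads were placed on GRCm38. How they were aligned and quantified, with which annotation, and whether strand was used is not given in the sources used here.

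Members, lists, thresholds and alternatives were chosen with earlier results of these data known. There were 6 comparisons, each of 2 libraries, on the log2 ratio of FPKM + 1, over genes at 1 FPKM or more in at least 1 of them, counted at 2-fold. Without replicates no test was run. Low FPKM values gave the approximate depth, but at the best step only 29.7% to 35.0% of low values were whole fragments (tolerance 0.02), so no count test was run. Fragment numbers and Poisson intervals take the longest coding transcript as the length.

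Besides the members, up to 4 genes per list with the largest difference between PRP-MNs and NC were named, with genes a list is known by and the 10 nearest profiles to Hdc and to the protease mean. Genes named only for being at 0, below 1 FPKM or in a count of 5 or fewer were chosen after their values were seen. Alternatives were another pseudocount, other filters, rescaling and centring. Coordinates are from GENCODE M21 (GRCm38). Calculations used Python 3.11.15 with pandas 2.3.3 and numpy 2.4.6 and were tested on simulated data.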

Additional observations from a re-analysis of the deposited data

Results flagged for a closer look

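Cpa3 and Mcpt4 differed in opposite directions with and without the other treatment. For Cpa3, the log2 difference that went with PRP was -2.09 in the presence of MNs (PRP-MNs against MNs) and 1.23 in its absence (PRP against NC), a difference of -3.316 between them. The log2 difference that went with MNs was -1.19 in the presence of PRP (PRP-MNs against PRP) and 2.13 in its absence (MNs against NC), which gives the same -3.316. For Mcpt4, the difference that went with MNs was -1.12 in the presence of PRP and 2.06 in its absence, -3.178 between them. Each figure rests on 1 library per group and the difference was not tested. The same 4 libraries give both Cpa3 results, so they are 1 observation.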

How the results depend on the processing

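With 1 library per group no library could be left out. No paired analysis was possible because each group has 1 library. Of the counts of members and Hdc distances recomputed under the alternatives, 71 stayed within the limits set and 10 did not. The members' median for PRP-MNs against PRP changed sign, to -0.25 with the 5 FPKM filter (0.25 with the filter of 1 FPKM). A pseudocount of 0.1 FPKM gave 4 members higher in PRP-MNs against PRP and 2 in PRP-MNs against MNs, against 2 and 1. Requiring 5 FPKM left 1 member higher in PRP-MNs against NC, 1 in PRP against NC, 5 in MNs against NC and 1 in PRP-MNs against PRP, because fewer members are measured. Centring on the median of all genes left 2 higher in PRP-MNs against NC and 1 in PRP-MNs against PRP. Dividing each profile by its SD brought Hdc to 1.878 from the protease mean and 0.52 from the neutrophil mean, since it rescales the distances. Without Tpsab1, chosen after seeing the data, Hdc lay 4.485 from the protease mean.

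Over all genes, rescaling to the same FPKM sum moved the median difference of PRP-MNs against NC to 0.29 (0.14 as deposited), of MNs against NC to 0.34 (0.16), of PRP-MNs against PRP to 0.18 (0.08) and of PRP against MNs to -0.24 (-0.10). In PRP against MNs it moved the higher share of calls to 32.0% (43.6% as deposited). Centring moved that share to 57.8% in MNs against NC (68.8%). A pseudocount of 0.1 FPKM raised the calls in PRP against NC to 1644 higher and 432 lower (1053 and 197), and those lower in PRP against MNs to 1285 (829); the filter of 5 FPKM left 130 lower in PRP against NC. Low values limit Fcer1a, Ms4a2 and Tpsab1 most.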
